A study of Neurospora crassa with 2 samples.

Results

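This account describes 38 genes of the filamentous fungus Neurospora crassa whose transcripts were abundant at nearly the same level in mycelium with and without ncw-1, out of 9730 genes measured. The members were chosen by their measured values. A member had an RPKM (a read count divided by gene model length in kilobases and by library size) of at least 400 in both libraries and a log2 ratio between −0.5 and 0.5, which is 1.41-fold either way. Here and below the log2 ratio compares RPKM + 1 of the Δ3βGΔncw-1 library with that of Δ3βG, so a positive value is higher in Δ3βGΔncw-1. Since the rule used them, levels and ratios are given as descriptions, with no test. Of the 38, 15 had a gene symbol in the RefSeq gene table of assembly NC12 and 23 were known by locus tag only.

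RNA was sequenced from 1 library of each of 2 strains. In Δ3βG the genes of 3 β-glucosidases, enzymes that split cellobiose into glucose, are deleted (gh1-1, gh3-3, gh3-4). In Δ3βGΔncw-1 these are deleted together with ncw-1, the gene of a non-anchored cell wall protein. Both strains grew for 20 h in MM and were then held for 4 h in Vogel's salts with 1% cellobiose, so the missing β-glucosidases are common to both and no intact strain, other sugar or other time was compared. With 1 library per strain there is no replicate check, and a difference between libraries cannot be told apart from one between cultures.

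Abundant transcripts in fungal hyphae commonly encode the translation machinery, actin, chaperones, organelle proton pumps and channels, and structural proteins of the wall and of the septal pores. Hyphae grow at the tip and are divided by perforated septa, so that cytoplasm flows between compartments, and Woronin bodies plug the pores after wounding. Genes of this kind are often used as a level reference for other genes, a use that assumes equal levels in the samples compared.

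The deleted gene ncw-1 (NCU05137) followed its label, at 435 RPKM in Δ3βG against 2.62 without it. Both strains' genotype labels carry a closing a, but the mat A genes matA-1 (NCU01958) and ccg-4 (NCU02500) were listed at 0 in Δ3βG and had 15.4 and 87.9 RPKM in Δ3βGΔncw-1. The mating gene mfa-1 (NCU16992) had transcripts in both libraries, at 141 RPKM in Δ3βG and 35.0 in Δ3βGΔncw-1. Transcripts of these mat A genes were thus found in Δ3βGΔncw-1 only, with 3692 reads of ccg-4 against 0 in Δ3βG. In these 2 libraries that difference goes with the ncw-1 deletion and cannot be told apart from it. Together with mfa-1, these values do not settle the mating type of either library. The part of these differences in mating genes in the values below was not tested. Of 7 conidiation markers, con-8 and con-10 were within 0.5 of 0 in log2 ratio. The other 5 were lower in Δ3βGΔncw-1 by more than that, with 43.9 and 2.07 RPKM for acon-3 (NCU07617). The hydrophobin gene eas (NCU08457), also among the 5, held 12.8% of the summed RPKM in Δ3βG and 0.355% in Δ3βGΔncw-1, and its part in the members' ratios is given only through the alternative scalings below. Total reads per library, recovered from the values, were 20510798 and 20019350.

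The 38 members ranged from 421 to 3538 RPKM in Δ3βG, with a median of 702, and from 413 to 4010 RPKM in Δ3βGΔncw-1, with a median of 676. The median of the 5989 genes that reached 10 RPKM in either library was 29.4 and 24.4. Together the members held 8.82% of the summed RPKM in Δ3βG and 8.91% in Δ3βGΔncw-1. With eas left out of the sums these shares were 10.1% and 8.94%, which turns the direction. By mean RPKM, 15 members lay between 400 and 600, 14 between 600 and 1200 and 9 at 1200 or more. The 5 highest members held 37.0% of the members' summed RPKM in Δ3βG and 38.5% in Δ3βGΔncw-1. In Δ3βG, 5 members were among the 10 genes with the highest RPKM, against 1 in Δ3βGΔncw-1. By their symbols the members include genes of translation factors, actin, an organelle pump and a mitochondrial channel, but also a conidiation gene and an α-amylase family gene. They include 0 genes of the lists of ribosomal proteins, ubiquitin and proteasome, histones, glycolysis and complex I. The lists hold only genes with a symbol, so the 23 members without one could not be counted in them. The lists of ribosomal proteins, ubiquitin and proteasome, and complex I had 0 genes with at least 400 RPKM in both libraries. With most members in no list, the set is called here by its rule and not a housekeeping core.

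**Figure D1:**
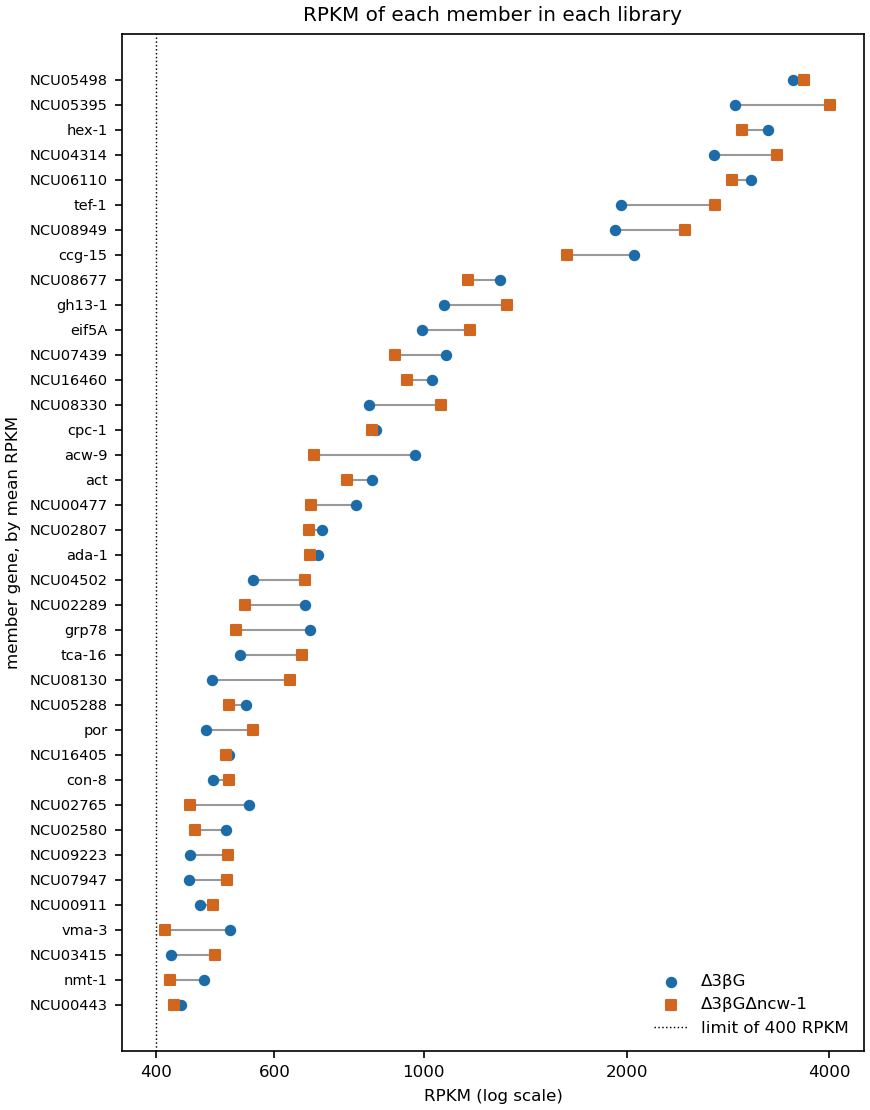
RPKM of each of the 38 members in the Δ3βG library (circles) and the Δ3βGΔncw-1 library (squares), on a log axis, ordered by mean RPKM, with a line joining the 2 values of a gene. The highest values are 3538 RPKM (NCU05498) and 4010 RPKM (NCU05395), and the dotted line marks the limit of 400 RPKM.

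Gene lists are set below against the 5989 genes that reached 10 RPKM in either library. Of these, 49.5% had a log2 ratio in the window and 30.6% a ratio above 0, and 8.08% were at least 2-fold up and 11.1% at least 2-fold down in Δ3βGΔncw-1. Their median log2 ratio was −0.32. In bands of genes whose lower RPKM was between 10 and 400, the share in the window was higher, from 52.4% to 66.4%. For list genes at such levels, 49.5% is therefore a low background. No list was tested against the 5989 genes or against a band.

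Both translation factor genes among the members had the higher RPKM in Δ3βGΔncw-1. The RPKM of tef-1 (NCU02003), which encodes translation elongation factor 1-alpha, the carrier of aminoacyl-tRNA to the ribosome, was 1962 in Δ3βG and 2710 in Δ3βGΔncw-1. Its log2 ratio of 0.47 (95% counting interval 0.45 to 0.48) was the second highest of the members. The RPKM of eif5A (NCU05274), a translation factor known for its hypusine residue, was 992 and 1169, a log2 ratio of 0.24 (0.21 to 0.26). The remaining gene of the translation factor list, cot-3 (NCU07700), encodes elongation factor 2 and had 696 and 992 RPKM. Its log2 ratio of 0.51 placed it just outside the window. All 3 genes of this list thus had the higher RPKM in Δ3βGΔncw-1, beside 30.6% of all genes. Translation factor genes without a symbol were not in the list. None of the 7 cytosolic ribosomal protein genes with a crp symbol was a member, since the highest had 113 and 87.7 RPKM, and all 7 had the lower RPKM in Δ3βGΔncw-1, with a median log2 ratio of −0.36. The crp median was near the −0.32 of all genes, of which 30.6% had a log2 ratio above 0. Genes of protein synthesis lay on both sides of equal RPKM.

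The chaperone grp78 (NCU03982), the Hsp70 of the endoplasmic reticulum, lay on the other side, at 677 RPKM in Δ3βG against 526 in Δ3βGΔncw-1 and with a log2 ratio of −0.36 (−0.39 to −0.34). It was the only member in a list of 15 chaperone and peptidyl-prolyl isomerase genes, of which 8 had a log2 ratio inside the window, with a list median of 0.17. The other list gene above 400 RPKM in both libraries was the cyclophilin gene csr-1 (NCU00726), with 1620 and 3199 RPKM. The heat shock gene hsp80 (NCU04142) was nearer to equal, at 219 and 241 RPKM, but below the level limit. Proteasome and ubiquitin genes had log2 ratios in the window at 21 of 24, against 49.5% of all genes and 62.0% of those whose lower RPKM was between 50 and 100. Their median log2 ratio was −0.20, and none reached 400 RPKM in either library.

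Transcripts of actin and of the Woronin body protein were close to equal in RPKM. The RPKM of act (NCU04173), the actin gene, was 838 in Δ3βG and 769 in Δ3βGΔncw-1, a log2 ratio of −0.12 (−0.15 to −0.10). Of 11 cytoskeleton genes, 8 were within the window, beside 49.5% of all genes, and all 11 had the lower RPKM in Δ3βGΔncw-1, with a list median log2 ratio of −0.38 against −0.32 for all genes, of which 30.6% were above 0. The α-tubulin genes tba-1 (NCU09132, 233 and 152 RPKM) and tba-2 (NCU09468, 242 and 141 RPKM) lay outside it. The RPKM of hex-1 (NCU08332), which encodes the core protein of the Woronin body, was 3247 and 2970, a log2 ratio of −0.13 (−0.14 to −0.12). Its rank among all genes by RPKM was 5 in Δ3βG and 16 in Δ3βGΔncw-1, and its list partners so (NCU02794) and wsc were in the window at lower levels.

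Both cell wall members had the lower RPKM in Δ3βGΔncw-1. The RPKM of ccg-15 (NCU08936), a clock-controlled gene that is also named acw-1 for an anchored cell wall protein, was 2049 in Δ3βG and 1634 in Δ3βGΔncw-1, a log2 ratio of −0.33 (−0.34 to −0.31). That of acw-9 (NCU06185), another anchored cell wall protein gene, was 972 and 688. Its log2 ratio of −0.498 (−0.52 to −0.48) was the lowest of all members, and its counting interval crossed the limit of the window, the only one of 38 to do so. In the list of 25 measured cell wall and cell surface genes, which leaves out ncw-1 and counts ccg-15 elsewhere, 9 lay in the window, beside 49.5% of all genes, while 4 were up and 4 down by 2-fold or more in Δ3βGΔncw-1, with a median log2 ratio of −0.49. The 2 other list genes with at least 400 RPKM in both libraries were acw-6 (NCU03530), with 1295 and 663 RPKM, and acw-5 (NCU07776), with 497 and 1376 RPKM.

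The mitochondrial members por and tca-16 had the higher RPKM in Δ3βGΔncw-1, as did 30.6% of all genes. The RPKM of por (NCU04304), the gene of porin, the channel of the outer mitochondrial membrane, was 474 in Δ3βG and 558 in Δ3βGΔncw-1, a log2 ratio of 0.23 (0.20 to 0.26). That of tca-16 (NCU06211), one of the genes numbered for the tricarboxylic acid cycle, was 533 and 659, a log2 ratio of 0.31 (0.28 to 0.34). Of 16 genes with a tca symbol, a list made after values were seen, 15 were in the window, beside 49.5% of all genes. In that list 6 genes had the higher RPKM in Δ3βGΔncw-1, beside 30.6% of all genes. The highest RPKM of the 16 in both libraries was that of tca-16. Among 23 genes of mitochondrial carriers, porin and import, 16 were in the window and 6, por among them, had the higher RPKM in Δ3βGΔncw-1. These counts stand beside 49.5% and 30.6% of all genes. The median log2 ratio of the 23 was −0.29, against −0.32 for all genes. The ADP/ATP carrier gene aac (NCU09477) had 651 and 322 RPKM. Complex I, the first proton pump of the respiratory chain, had 26 of 29 genes in the window, against 49.5% of all genes. The share was 62.0%, 64.8% and 66.4% where the lower RPKM was 50 to 100, 100 to 200 and 200 to 400. The RPKM was higher in Δ3βGΔncw-1 for 26 of 29, against 30.6% of all genes. Their median log2 ratio was 0.20, and that of these bands ran from −0.20 to 0.088. Complex I levels ran only from 88.4 to 366 RPKM in Δ3βG, so none was a member.

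The vacuolar proton pump was represented by vma-3 (NCU01332), which encodes a proteolipid subunit of its membrane ring. Its RPKM was 515 in Δ3βG and 413 in Δ3βGΔncw-1, the lowest value of any member in the latter, with a log2 ratio of −0.32 (−0.35 to −0.28). The other 13 genes of the pump were lower in both libraries, with the next highest, vma-2 (NCU08515), at 239 and 264 RPKM. Split by sector after the values had been seen, all 6 genes of the membrane sector, vma-3 among them, had a log2 ratio below 0. Their median was −0.64, against −0.32 for all genes, of which 30.6% were above 0. The log2 ratio of vma-3 was only 0.003 above that of the median gene. The 8 genes of the peripheral sector, which binds ATP, lay between −0.024 and 0.28, and 7 of these were above 0. The plasma membrane proton pump gene pma-1 (NCU01680) was outside the window, at 871 and 498 RPKM.

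Both members known as transcription factor genes were among the 5 closest to equal. The RPKM of cpc-1 (NCU04050), the activator of cross-pathway control of amino acid synthesis, was 848 in Δ3βG and 838 in Δ3βGΔncw-1. Its log2 ratio was −0.017 (−0.039 to 0.0062). Of 58 genes of amino acid, one-carbon and nucleotide synthesis, 30 had a log2 ratio in the window. By that ratio 3 were up and 6 down by 2-fold or more in Δ3βGΔncw-1. The shares of all genes were 49.5%, 8.08% and 11.1%, but at 10 RPKM or more, while the list began at 1 RPKM. Its median was 14.5 RPKM in Δ3βG, and the added 1 RPKM shrinks ratios of low genes. Without it, arg-12, ilv-4, lys-3 and leu-2 were also lower by more than 2-fold, with RPKM ratios of 0.475, 0.480, 0.327 and 0.452. The RPKM of ada-1 (NCU00499), a transcription factor gene named for altered development in its mutant, was 696 and 678, a log2 ratio of −0.040 (−0.062 to −0.018). The other 5 genes with an ada symbol, a list also made with values known, were lower in both libraries, the highest being ada-6 (NCU04866) with 190 and 3.72 RPKM.

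The remaining members with a symbol have unrelated roles. The RPKM of nmt-1 (NCU09345), a thiamine synthesis gene known in this fungus for a riboswitch that binds thiamine pyrophosphate, was 472 in Δ3βG and 420 in Δ3βGΔncw-1, a log2 ratio of −0.17 (−0.19 to −0.14). That of gh13-1 (NCU08131), in the glycoside hydrolase family of the α-amylases, was 1069 and 1327, a log2 ratio of 0.31 (0.30 to 0.33). The conidiation gene con-8 (NCU09235) had 487 and 514 RPKM, a log2 ratio of 0.076 (0.043 to 0.11). Of the other conidiation markers, con-10 (NCU07325) was in the window with 66.1 and 90.0 RPKM, a log2 ratio of 0.44. Outside it, the RPKM was 284 and 157 for con-6 (NCU08769), 6.48 and 2.25 for con-13 (NCU07324) and 60350 and 1746 for eas.

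Of the 23 members known only by locus tag, 6 were among the 10 members with the highest mean RPKM. The RPKM of NCU05498 was 3538 in Δ3βG and 3671 in Δ3βGΔncw-1, that of NCU05395 2895 and 4010, and that of NCU04314 2697 and 3347. NCU06110 had 3057 and 2865 RPKM, NCU08949 1925 and 2441, and NCU08677 1298 and 1164. NCU05395 had the highest log2 ratio of any member, 0.47 (0.46 to 0.48), while NCU05498 was at 0.053 (0.041 to 0.066). Nearest to equal of all 38 was NCU16405, with 513 and 508 RPKM and a log2 ratio of −0.014, and after cpc-1 came NCU00443, with 436 and 426 RPKM and −0.036. The files and the gene table give no function for these 23.

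Counting error was small beside the window. Members had between 9657 and 147802 reads in a library, and the width of their exact 95% Clopper-Pearson intervals on the log2 scale had a median of 0.050 and ran from 0.022 to 0.080. For 36 of the 38 the interval excluded equal RPKM, with 17 higher and 19 lower in Δ3βGΔncw-1, and the exceptions were cpc-1 and NCU16405. Abundant genes just outside the window also had intervals that excluded equal RPKM, at 0.49 to 0.53 for cot-3 and −0.54 to −0.50 for NCU06781. Exclusion of equal RPKM thus did not set the members apart and was no test between strains. All these intervals cover counting error only. They hold no variation between cultures, so the size of a difference that repeat cultures would show is unknown. Of the 38, 10 had a log2 ratio within 0.1 of 0 and 23 within 0.25, and the SD of the log2 ratio across the 38 genes was 0.26.

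**Figure D2:**
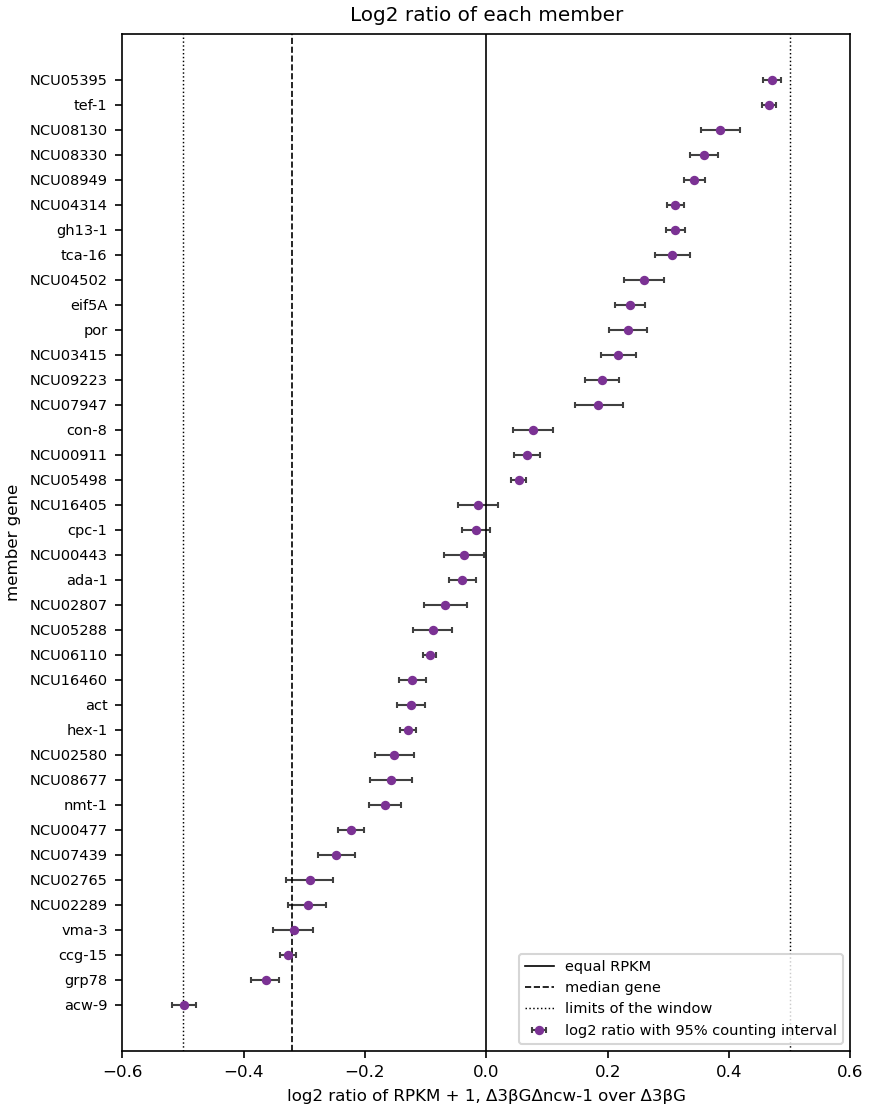
Log2 ratio (RPKM + 1 in Δ3βGΔncw-1 relative to Δ3βG) of each member with its 95% counting interval. The dashed line marks the median gene at −0.32, and the dotted lines mark the limits of the window at −0.5 and 0.5. The members run from −0.498 (acw-9) to 0.47 (NCU05395), and 35 of the 38 lie to the right of the median gene.

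The word unchanged depends on what the members are set against. The median log2 ratio of the members was −0.026, near 0 as the rule requires, while that of the 5989 genes that reached 10 RPKM in either library was −0.32, with quartiles at −0.67 and 0.13. Relative to the median gene, 35 of the 38 members were therefore on the Δ3βGΔncw-1 side, and their median was 0.29 above it, or 1.23-fold. By that measure 24 of the 38 stayed within 0.5, and 14 were more than 0.5 higher, among them tef-1, eif5A, por, tca-16 and gh13-1. The 3 at or below the median gene were acw-9, grp78 and ccg-15. When the rule was applied again with libraries centred on the median gene, it chose 44 genes, of which 24 were shared with the 38 and 20 were not. Trimmed mean scaling gave the same counts.

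**Figure D3:**
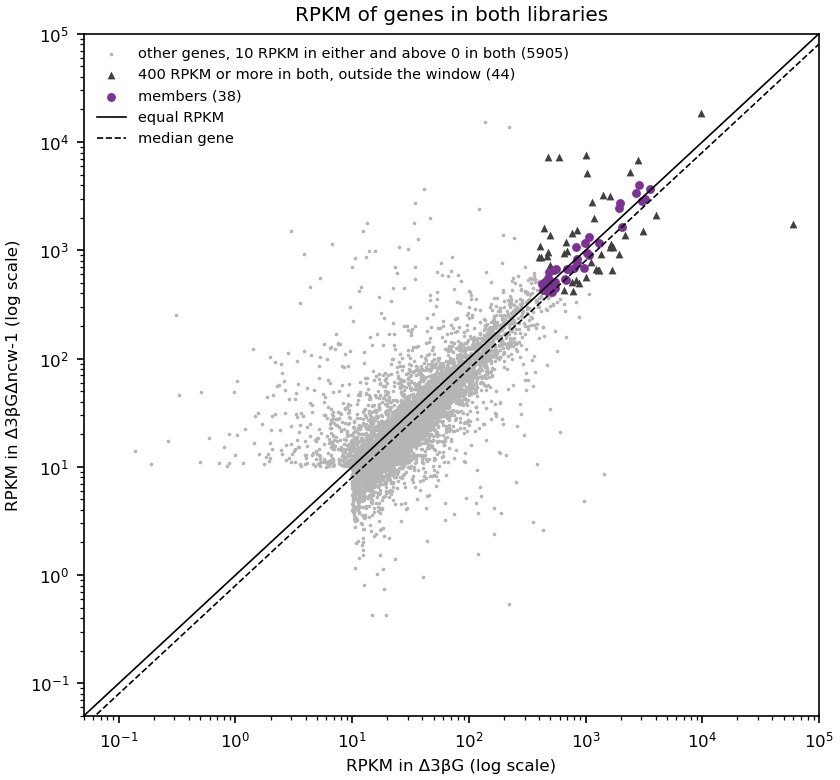
RPKM in Δ3βGΔncw-1 against RPKM in Δ3βG on log axes for genes above 0 in both libraries. The 38 members (large circles) lie along the line of equal RPKM, the 44 other genes with at least 400 RPKM in both libraries (triangles) lie off it to either side, and the dashed line of the median gene runs below it.

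A log2 ratio within 0.5 of 0 occurred at every transcript level. It was found for 49.5% of the 5989 genes that reached 10 RPKM in either library and for 46.3% (38 of 82) of the genes with at least 400 RPKM in both. With genes grouped by the lower of their 2 RPKM values, the share in the window was 52.4% of 2314 genes between 10 and 25 RPKM, 64.8% of 330 genes between 100 and 200, and 66.4% of 131 genes between 200 and 400. Centred on the median gene, the share was 65.8%, 63.6% and 55.7% in these bands and 41.5% at 400 RPKM or more. The share above 0.5 was 9.68% between 10 and 25 RPKM and 29.3% at 400 RPKM or more. These shares describe these libraries, and differences between bands were not tested.

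**Figure D4:**
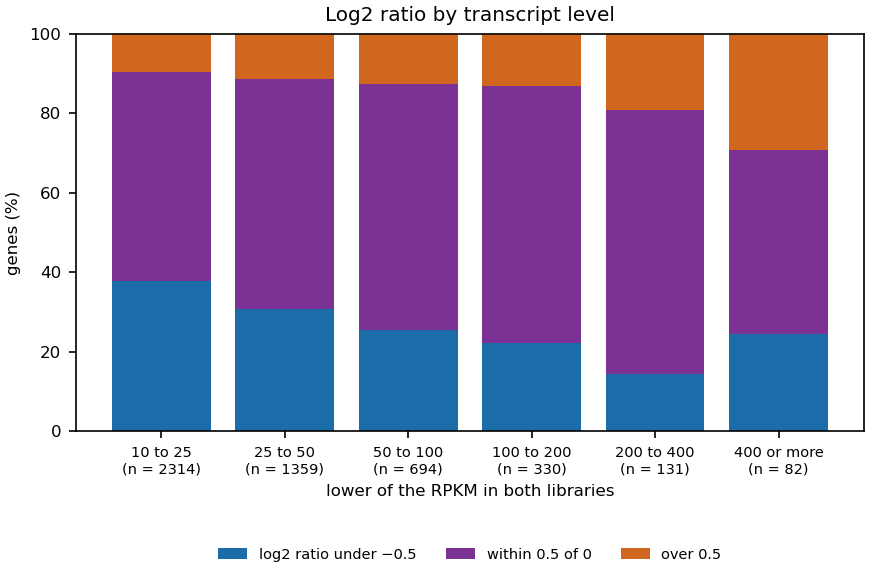
Share of genes (%) with a log2 ratio below −0.5, within 0.5 of 0 and above 0.5, by the lower of the RPKM in both libraries, with the number of genes under each bar. The middle part, within 0.5 of 0, is 66.4% between 200 and 400 RPKM and 46.3% at 400 RPKM or more.

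Of the 44 genes with at least 400 RPKM in both libraries outside the window, 24 were above it and 20 below it. Below it were 5 core or linker histone genes, among them hH3 (NCU01635, 3081 and 1506 RPKM) and hH2B (NCU02435, 1920 and 931 RPKM). No gene of the histone list was a member. The genes furthest below the window included eas, NCU01835, hH2B, hH3, acw-6, hH2A, NCU16822, NCU06660 and atg-8. The glyceraldehyde-3-phosphate dehydrogenase gene gpd-1 (NCU01528), often taken as a level reference, was above it with a log2 ratio of 0.73. Its RPKM was 1194 and 1985, and no gene of the glycolysis list was a member. The highest were the cellodextrin transporter gene cdt-2 (NCU08114, 476 and 7276 RPKM), NCU08756, NCU04522, NCU05853, NCU08055, acw-5, NCU09175, ccg-6, ccg-16 and NCU03600.

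**Figure D5:**
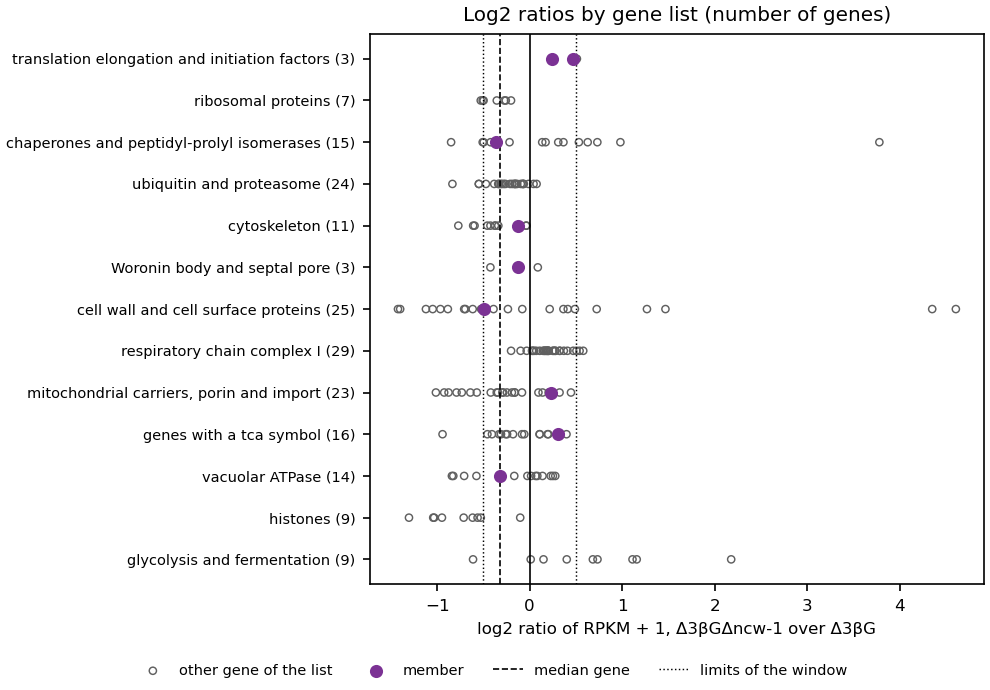
Log2 ratio (RPKM + 1 in Δ3βGΔncw-1 relative to Δ3βG) of each gene of 13 lists, with members as filled circles and other genes as open circles. Complex I genes lie to the right of the dashed line of the median gene (−0.32), 8 of 9 histone genes lie left of the window's lower limit of −0.5, and members lie between the dotted limits by the rule.

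The limits of the rule fell between genes of similar values. Just inside the upper limit were NCU05395, tef-1 and NCU08130 (484 and 633 RPKM, log2 ratio 0.38), and just outside it were cot-3, NCU09326 (649 and 947 RPKM, 0.54) and oli (NCU02250), the gene of ATP synthase subunit 9 (494 and 733 RPKM, 0.57). Just inside the lower limit were acw-9, grp78 and ccg-15, and just outside it were NCU06781 (1106 and 772 RPKM, −0.52), the 14-3-3 protein gene nfh-2 (NCU02806, 1659 and 1152 RPKM, −0.53) and the linker histone gene hH1 (NCU06863, 1363 and 922 RPKM, −0.56). At the level limit, vma-3, nmt-1 and NCU03415 (421 and 489 RPKM) were just inside. Just outside it were NCU04930 (397 and 517 RPKM), atp-2 (NCU05430, 392 and 507 RPKM), which encodes the β subunit of ATP synthase, and NCU06346 (384 and 434 RPKM).

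Gene model length and neighbourhood were not used by the rule. For the 33 members with a single fitting model length, that length had a median of 1585 bases and ran from 866 to 3547. It had a median of 1464 bases in the 39 such genes of at least 400 RPKM outside the window, and of 2253 bases in 5487 genes that reached 10 RPKM in either library. A symbol was held by 39.5% of the members, by 50% of the 44 other abundant genes and by 15.4% of the 5989. In the gene order of the reference, 3 pairs of members were direct neighbours, hex-1 with NCU16405, ada-1 with NCU16460 (1028 and 944 RPKM), and gh13-1 with NCU08130. The spans of the first 2 pairs overlapped, NCU16405 covering 23.3% of the hex-1 span and NCU16460 14.1% of the ada-1 span, and since the use of strand in counting is not given, their reads may not be fully separated. In all, 9 members had a span that overlapped a direct neighbour. The 72 measured neighbours of members had a median of 21.3 RPKM in Δ3βG and 18.3 in Δ3βGΔncw-1, and nfh-2 next to NCU02807 (707 and 674 RPKM) was the only one beyond the 3 pairs with at least 400 RPKM in both libraries.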

How the data were processed

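The authors deposited 1 table of RPKM values with 1 column per library, per the file headers. TopHat2 2.0.8b, HTSeq 0.5.4p2 and, with version 1.5.1, DESeq are named without roles in the submitters' processing notes. For genome build, annotation and use of strand the sources used here give nothing. Columns were matched to libraries by sample identifier, and 0 columns were left unused. Of 9730 genes, 9729 matched the RefSeq gene table of NC12, used for symbols, gene order and spans.

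Log2 ratios used a pseudocount of 1 RPKM. Because there was 1 library per strain, no test between strains was made. Library totals were recovered from genes with 1 read, and model lengths as those of at least 50% of the reference span that gave whole reads in both libraries within 1e-06 reads plus 1e-09 of the reads. All 9264 genes tried had a solution, a single one for 33 of 38 members, and the smallest was used for the other 5. The recovery was tested on simulated data whose model lengths met these conditions by construction. That test does not show whether the deposited values meet them. Intervals are for the ratio of RPKM without the pseudocount, conditional on the summed reads. Reads are not independent molecules, and intervals cover counting error only.

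The members and gene lists were chosen with earlier results of these data known. Lists were made by the start of the gene symbol, at 1 RPKM or more in either library, and symbols of another function caught that way, and ncw-1, were removed after the match. Genes named are ncw-1, every member with a symbol, the 10 members with the highest mean RPKM, the 5 nearest equal, 3 genes on either side of each limit and the 10 abundant genes furthest outside the window each way, of which 1 is not reported here. Any other gene was named with its values known. Alternatives were 4 scalings, pseudocounts of 0.1 and 5 RPKM, other level limits and other windows. Python 3.11.15, numpy 2.4.6, pandas 2.3.3, scipy 1.17.1 and matplotlib 3.10.9 were used. Sequences were not used here.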

Additional observations from a re-analysis of the deposited data

How the results depend on the processing

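The median log2 ratio of the 38, −0.026 as deposited, was 0.29 with centring on the median gene, 0.30 with trimmed mean scaling, −0.083 with equal sums and −0.13 with equal sums without the 9 genes among the 5 highest of either library. The number above 0, 17 as deposited, was 35 with median-gene centring and 35 with trimmed mean scaling, and 16 and 14 with the other scalings. The number chosen was between 37 and 44 under these scalings, but the genes changed. Median-gene centring and trimmed mean scaling each lost 14 of the 38 and gained 20, equal sums lost 2 and gained 2, and equal sums without the highest genes lost 4 and gained 3. Both other pseudocounts gave 38.

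The rule's own limits changed the number by construction. A minimum of 200 RPKM in both gave 125 genes (median 0.028, 14.3% and 14.2% of summed RPKM in Δ3βG and Δ3βGΔncw-1) and a minimum of 800 gave 15 (0.053, 6.03% and 6.31%). A minimum of 400 in either library gave 54 genes (10.2% and 10.3%), and no minimum gave 5672 (−0.072, 41.4% and 38.8%). A window of 0.25 gave 23 genes (4.93% and 4.62%) and a window of 1 gave 64 (−0.078, 17.2% and 18.1%). No paired analysis was possible because each strain had 1 library. Counting intervals of the members were narrower than the window, and none of these values has a replicate check.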

Other observations

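Below the level limit, 87 genes had a log2 ratio in the window and a lower RPKM of 200 to 400, and 29 of these had a symbol. They included further genes of the processes described above. Complex I was represented by 6 genes, such as nuo6.6 (NCU00160, 313 and 392 RPKM in Δ3βG and Δ3βGΔncw-1) and nuo29.9 (NCU05299, 255 and 339 RPKM), and the peripheral sector of the vacuolar proton pump by vma-1 (NCU01207, 203 and 215 RPKM), vma-2 and vma-10 (NCU05118, 218 and 256 RPKM). Signalling genes appeared as well, with 206 and 231 RPKM for the MAP kinase gene mak-2 (NCU02393), 226 and 211 for the G protein γ subunit gene gng-1 (NCU00041) and 327 and 291 for the 14-3-3 gene nfh-1 (NCU03300). The light photoreceptor gene vvd (NCU03967) had 277 and 312 RPKM, and the tropomyosin gene tpm (NCU01204) had 394 and 304. Nearest to equal among the 29 was eat-5 (NCU01962), with 214 and 215 RPKM.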
